A study of Homo sapiens with 6 samples.

Results

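The genes described here are those of the MYC and MAX network of transcription factors: MYC, MAX, MXD1, MXD3, MXD4, MXI1, MNT, MLX, MLXIP and MGA. They were chosen by name, as every one of these symbols that is listed in both deposited expression tables, and all 10 were found among 13002 genes. RNA was sequenced from OCI-AML2 cells, a human line established from acute myeloid leukaemia, after lentiviral delivery of TAZ shRNA1, TAZ shRNA2 or a control hairpin. TAZ is the gene of tafazzin, a mitochondrial transacylase that matures cardiolipin, and the design asks how gene expression responds when it is knocked down by independent hairpins. The 3 groups had 2 libraries each, lettered A and B, and all of them, the control included, had been infected, kept for 3 days in 2.0 µg/mL puromycin and harvested as bulk RNA. By its label the control hairpin is a scramble, while its columns in the tables are named GFP. The labels leave it unsaid whether A and B were separate cultures, so the p-values speak only of the spread among these libraries, and that spread may be technical.

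MYC is a basic helix-loop-helix leucine zipper protein that binds E-box DNA only as a dimer with MAX, and in that form it activates genes of ribosome production, nucleotide and amino acid synthesis and the cell cycle. MAX also pairs with the MXD proteins, MXI1, MNT and MGA, which occupy the same E-boxes and recruit repressor complexes, so that these proteins and MYC share a common partner. MLX is a parallel partner for some MXD proteins, for MNT and for the glucose-sensing factor MLXIP (MondoA). In myeloid leukaemia cells MYC is a known driver of proliferation, and MXD proteins are known to accompany differentiation of blood cells.

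Because the network reads E-box DNA, the promoters of its own genes were searched for the E-box itself. RefSeq promoter windows on build GRCh38.p14, from 250 bases before to 50 bases after each annotated start, were held for 9 of the 10 members, in 14 windows. The canonical E-box CACGTG, which reads the same on both strands, stood in the promoters of 3 of the 9 members, MXD4, MNT and MLX. Of 10256 listed genes with a window, 12.7% held it. The related letters CACGCG were searched on both strands and share no match with CACGTG. They stood in the promoters of 3 other members, MXD3, MXI1 and MGA, and in those of 22.5% of the listed genes. In MGA they stood in 1 of its windows (chr15:41660155-41660454, plus strand) and not in the others. The windows of the E-box holders are shown, and that of MXI1, the network gene besides MYC that fell with a hairpin. They run 5′ to 3′ on the gene's strand, with the matched letters in capitals. The first matched base lies 238 bases before the start in MXD4 (chr4:2262060-2262359, minus strand), 193 before it in MNT (chr17:2401011-2401310, minus strand) and 50 before it in MLX (chr17:42566850-42567149, plus strand). In MXI1 it lies at position 9, counting the start as 1, of the most downstream of 3 annotated starts (chr10:110225746-110226045, plus strand). The expression tables give 1 value per gene, so the starts of MXI1 could not be told apart.
MXD4: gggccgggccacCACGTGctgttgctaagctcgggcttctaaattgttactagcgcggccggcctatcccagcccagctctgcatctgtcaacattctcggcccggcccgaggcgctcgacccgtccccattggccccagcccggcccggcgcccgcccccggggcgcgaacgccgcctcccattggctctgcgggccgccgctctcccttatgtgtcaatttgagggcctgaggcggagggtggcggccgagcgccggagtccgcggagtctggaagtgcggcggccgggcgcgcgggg
MNT: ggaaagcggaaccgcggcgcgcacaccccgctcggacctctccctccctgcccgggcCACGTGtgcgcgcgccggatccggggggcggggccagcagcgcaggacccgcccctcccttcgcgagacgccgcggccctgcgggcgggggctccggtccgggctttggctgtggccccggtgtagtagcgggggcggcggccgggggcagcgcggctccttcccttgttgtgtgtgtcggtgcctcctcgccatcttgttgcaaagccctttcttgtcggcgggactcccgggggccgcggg
MLX: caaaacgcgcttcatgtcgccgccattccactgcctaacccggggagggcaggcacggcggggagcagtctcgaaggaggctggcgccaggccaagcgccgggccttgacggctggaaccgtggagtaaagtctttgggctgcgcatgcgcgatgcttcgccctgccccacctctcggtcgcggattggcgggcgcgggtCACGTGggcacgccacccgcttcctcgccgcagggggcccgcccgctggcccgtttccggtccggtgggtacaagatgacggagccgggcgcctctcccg
MXI1: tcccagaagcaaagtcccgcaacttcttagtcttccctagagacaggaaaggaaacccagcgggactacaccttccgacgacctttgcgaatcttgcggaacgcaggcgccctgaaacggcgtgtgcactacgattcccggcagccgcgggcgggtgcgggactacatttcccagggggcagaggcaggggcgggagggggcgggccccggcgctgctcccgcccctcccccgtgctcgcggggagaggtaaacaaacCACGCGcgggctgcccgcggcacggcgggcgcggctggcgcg

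The levels below are in RPKM, in which reads are divided by the length of the gene and the depth of the library, so that genes can be compared. Each library held between 18816898 and 20975077 reads in listed genes, and the 10 most abundant genes took 7.99% to 9.12% of them. Over genes, log2(B) minus log2(A) had an SD of 0.211 with shRNA1, 0.289 with shRNA2 and 0.339 in the control. TAZ itself averaged 4.06 ± 0.0572 RPKM with shRNA1 and 1.80 ± 0.461 RPKM with shRNA2, against 11.6 ± 0.444 RPKM in the control (SD, n = 2 each). Of 10 myeloid markers, 9 had at least 1 RPKM in all 6 libraries. Markers of other blood lineages were low, and their levels also differed between groups. CD3D, the T-cell marker measured, stood at 0 to 0.131 RPKM with shRNA1 and 0.0694 to 0.269 RPKM with shRNA2, against 0.732 to 0.981 RPKM in the control. The 4 B-cell markers measured summed to 4.403 to 4.999 RPKM with shRNA1 and 1.31 to 1.6002 RPKM with shRNA2, against 1.88 to 3.46 RPKM in the control. The 2 megakaryocyte markers measured summed to 1.55 to 2.02 RPKM with shRNA1 and 3.67 to 4.44 RPKM with shRNA2, against 4.82 to 6.16 RPKM in the control. The summed myeloid markers, to which LYZ contributed most, stood at 6148 to 6848 RPKM with shRNA1, 5058 to 6012 RPKM with shRNA2 and 1602 to 2014 RPKM in the control. All 4 sets of markers moved with one or both hairpins, and their part in the results below was not tested.

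MYC was the most abundant member in every library and the member that differed most. Its libraries had 138 and 127 RPKM with shRNA1 and 57.4 and 68.7 RPKM with shRNA2, against 203 and 240 RPKM in the control. Every hairpin library was below both control libraries, and both shRNA2 libraries were below both shRNA1 libraries. The levels rest on 6739 and 6363 reads with shRNA1, 2639 and 3265 with shRNA2, and 8586 and 11513 in the control. Among all listed genes MYC ranked 506 and 532 by RPKM with shRNA1 and 1384 and 1019 with shRNA2, against 389 and 280 in the control. In bulk RNA, fewer cells that express a gene and less of its RNA per cell cannot be told apart.

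Changes were tested with limma on log2(RPKM + 0.5) across all genes averaging 1 RPKM or more, two-sided, and a change was called where the Benjamini-Hochberg adjusted p was under 0.05. MYC averaged 133 ± 7.56 RPKM with shRNA1 and 221 ± 26.3 RPKM in the control (SD, n = 2 each), a level 39.8% lower. Its log2 fold change was -0.73 (SE 0.14, 95% interval -1.05 to -0.41, limma adjusted p = 0.0147). With shRNA2 it averaged 63.0 ± 7.99 RPKM, 71.4% below the control, a log2 fold change of -1.81 (SE 0.17, 95% interval -2.21 to -1.40, limma adjusted p = 0.00245). The shRNA2 call held under all 16 alternatives, with log2 values of -1.93 to -1.68 when 1 library was left out. The shRNA1 call was lost without shRNA1 A (limma adjusted p = 0.0658) and without shRNA1 B (0.159), with log2 values of -0.79 and -0.67.

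MAX, the shared partner, was the second most abundant member in each group. It had 39.9 and 34.7 RPKM with shRNA1 and 33.9 and 34.3 RPKM with shRNA2, against 36.0 and 34.6 RPKM in the control. Its highest library was 1.176 times its lowest, and the 3 groups lay within that narrow span. The log2 difference was 0.08 with shRNA1 (95% interval -0.21 to 0.36, limma adjusted p = 0.681) and -0.05 with shRNA2 (95% interval -0.36 to 0.27, limma adjusted p = 0.833). A change of MAX as large as that of MYC lies outside both intervals.

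**Figure D1:**
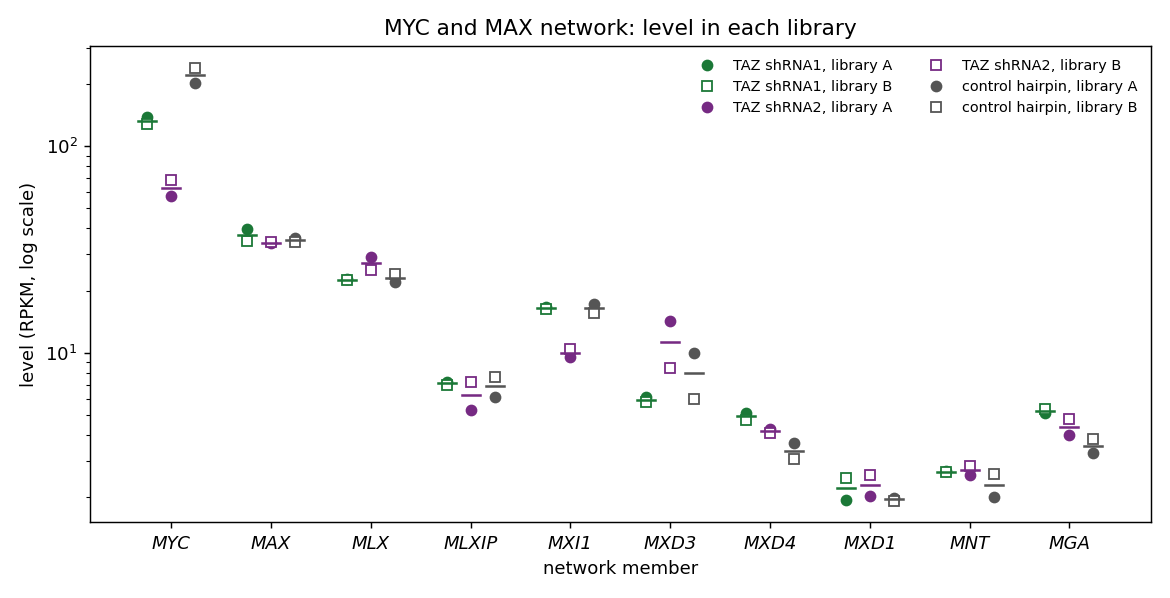
RPKM of the 10 network genes on a log axis, with a point for each of the 2 libraries of TAZ shRNA1, TAZ shRNA2 and control. MYC lies highest in all 6 libraries, with shRNA2 at 57.4 and 68.7 RPKM, shRNA1 at 127 and 138 RPKM and the control at 203 and 240 RPKM.

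Among the MAX partners that oppose MYC, MXI1 was the most abundant in the shRNA1 and control libraries. MXI1 had 16.8 and 16.4 RPKM with shRNA1 and 9.53 and 10.4 RPKM with shRNA2, against 17.3 and 15.7 RPKM in the control. The shRNA2 libraries stood apart from the other 4, while the shRNA1 libraries lay within the range of the control. With shRNA2, MXI1 fell by 38.3%, a log2 fold change of -0.70 (SE 0.14, 95% interval -1.03 to -0.36, limma adjusted p = 0.0206). This call was lost without shRNA2 A (-0.63, limma adjusted p = 0.0736) and held in the other 15 of 16 alternatives. With shRNA1 the log2 difference was 0.01 (95% interval -0.27 to 0.29, limma adjusted p = 0.964).

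MXD3, an MXD protein known from dividing cells, had 6.10 and 5.77 RPKM with shRNA1 and 14.2 and 8.43 RPKM with shRNA2, against 9.99 and 6.003 RPKM in the control. Library B minus A was -0.72 with shRNA2 and -0.69 in the control on the log2 scale, and the libraries of these groups overlapped. The log2 difference was -0.36 with shRNA1 (95% interval -0.88 to 0.16, limma adjusted p = 0.278) and 0.47 with shRNA2 (95% interval -0.20 to 1.15, limma adjusted p = 0.295), and neither was called. The values depended on the library left out. Without control A the log2 difference was 0.82 with shRNA2 (limma adjusted p = 0.0251) and -0.02 with shRNA1, and without control B it was 0.13 with shRNA2 and -0.71 with shRNA1 (limma adjusted p = 0.000968).

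MXD4 and MXD1, the remaining MXD repressors, were low. MXD4 had 5.14 and 4.75 RPKM with shRNA1 and 4.28 and 4.12 RPKM with shRNA2, against 3.67 and 3.06 RPKM in the control. All 4 hairpin libraries were above both control libraries, but no difference passed the test. The log2 value was 0.50 with shRNA1 (SE 0.15, 95% interval 0.14 to 0.86, limma adjusted p = 0.0612), which was called in 4 of 15 alternatives, among them without control A (0.00556). It was 0.29 with shRNA2 (95% interval -0.10 to 0.67, limma adjusted p = 0.273). MXD1, an MXD protein known to rise as myeloid cells mature, had 1.93 and 2.50 RPKM with shRNA1 and 2.04 and 2.57 RPKM with shRNA2, against 1.98 and 1.93 RPKM in the control. These levels rest on 199 to 296 reads, and the log2 differences of 0.14 (95% interval -0.26 to 0.54) and 0.19 (95% interval -0.25 to 0.62) were not called.

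MNT, a large MAX partner that is present in growing and resting cells alike, had 2.68 and 2.65 RPKM with shRNA1 and 2.56 and 2.85 RPKM with shRNA2, against 2.01 and 2.60 RPKM in the control. Its log2 differences were 0.18 (limma adjusted p = 0.457) and 0.20 (limma adjusted p = 0.495). MGA, a very large protein that joins MAX to a variant Polycomb complex, had 5.15 and 5.37 RPKM with shRNA1 and 4.003 and 4.81 RPKM with shRNA2, against 3.28 and 3.85 RPKM in the control. The hairpin libraries all lay above the control libraries. The log2 value of MGA was 0.51 with shRNA1 (SE 0.15, 95% interval 0.16 to 0.85, limma adjusted p = 0.0526), just short of the threshold, and 0.27 with shRNA2 (95% interval -0.13 to 0.67, limma adjusted p = 0.317). With shRNA1 it was called in 6 of 15 alternatives, including without control B (0.00493), and it was 0.27 (0.147) once a trend of fold change with gene length was removed.

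MLX had 22.7 and 22.4 RPKM with shRNA1 and 29.0 and 25.2 RPKM with shRNA2, against 21.9 and 24.05 RPKM in the control. Both shRNA2 libraries were above the other 4, by a log2 value of 0.23 over the control (95% interval -0.11 to 0.57, limma adjusted p = 0.312). MLXIP had 7.27 and 6.99 RPKM with shRNA1 and 5.31 and 7.22 RPKM with shRNA2, against 6.09 and 7.69 RPKM in the control, so all groups overlapped. Of the relatives, MYCL, another MYC protein, had 1.23 and 1.14 RPKM with shRNA1 and 1.90 and 1.99 RPKM with shRNA2, against 1.496 and 1.59 RPKM in the control. MYCL was called with neither hairpin against the control. Its log2 difference between shRNA2 and shRNA1 was 0.54 (95% interval 0.18 to 0.90, limma adjusted p = 0.0669). Both shRNA2 libraries lay above both shRNA1 libraries, and the difference was called in 4 of 17 alternatives. MLXIPL (ChREBP), the other Mondo protein, did not exceed 0.207 RPKM in any library and was not tested.

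**Figure D2:**
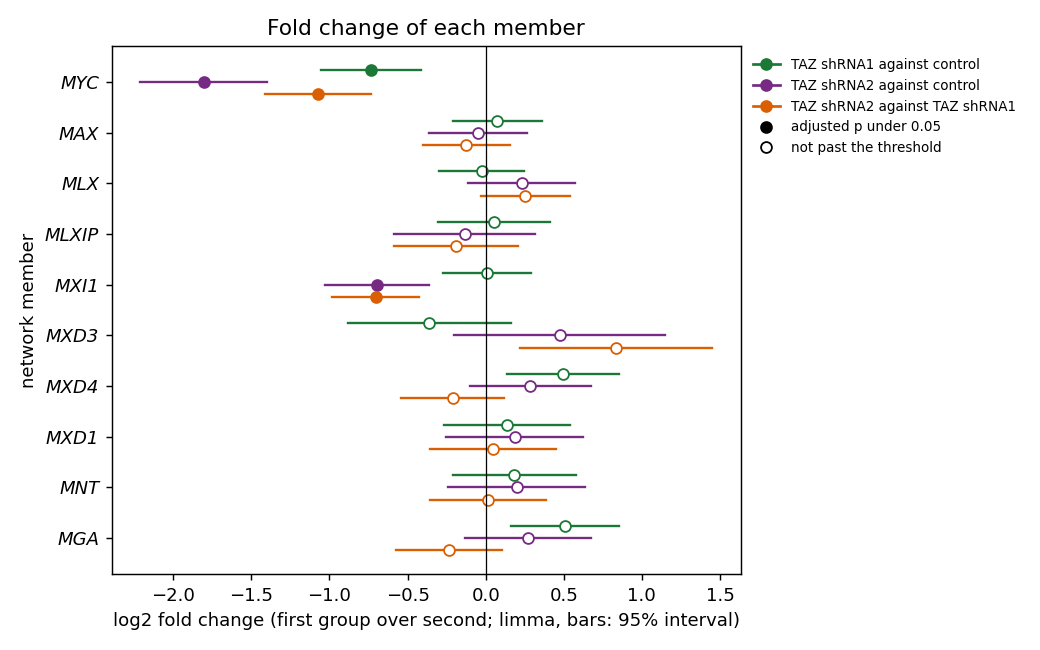
log2 fold change of each network gene on the log2(RPKM + 0.5) scale with its 95% interval, for TAZ shRNA1 against control, TAZ shRNA2 against control and TAZ shRNA2 against TAZ shRNA1. Filled symbols mark an adjusted p under 0.05, which are MYC in all 3 comparisons and MXI1 in both that involve shRNA2.

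All 10 members passed the filter on low values in each comparison. With shRNA1 1 of them fell (MYC) and 9 were not called, while limma called 18.6% of all genes tested, 8.58% as lower and 9.99% as higher. With shRNA2 2 fell (MYC and MXI1) and 8 were not called, with 15.7% of all genes called, 7.61% as lower and 8.12% as higher. The share of members called was thus 10% and 20%, near that of all genes, and the counts say nothing particular of the network. The members' median log2 fold change was 0.07 with shRNA1 and 0.19 with shRNA2, against -0.00 and -0.00 over all genes tested. Libraries did not overlap between hairpin and control for 4 members with shRNA1 and 7 with shRNA2, where 66% and 62.1% of all genes did not overlap. Both comparisons use the same control libraries. Of the members, 3 in the authors' deposited table pass an adjusted p of 0.05 with shRNA1 (MYC at -0.73, MXD4 at 0.55 and MGA at 0.56 on the log2 scale), where 35.9% of all genes do. With shRNA2 there are 4 in the authors' deposited table (MYC at -1.80, MXI1 at -0.71, MXD3 at 0.51 and MGA at 0.31), where 38.8% of all genes do.

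The order of the levels was read within each group. In the control it ran MYC, MAX, MLX, MXI1, MXD3, MLXIP, MGA, MXD4, MNT and MXD1, and the libraries overlapped between MXD3 and MLXIP and between MGA and MXD4. With shRNA1 MLXIP stood above MXD3 and no neighbours overlapped. With shRNA2 MXD3 stood above MXI1, but their libraries overlapped, as did those of MGA and MXD4 and those of MNT and MXD1.

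MYC gave 56.2% and 55.7% of the summed RPKM of the network with shRNA1 and 35.4% and 40.7% with shRNA2, against 66.5% and 70.7% in the control. The other 9 members together had 108 and 102 RPKM with shRNA1 and 105 and 99.9 RPKM with shRNA2, against 102 and 99.4 RPKM in the control, so the sum without MYC varied little. The ratio of MYC to MAX was 3.46 and 3.67 with shRNA1 and 1.69 and 2.00 with shRNA2, against 5.63 and 6.95 in the control. MYC over the sum of its 6 MAX-binding antagonists (MXD1, MXD3, MXD4, MXI1, MNT and MGA) was 3.66 and 3.41 with shRNA1 and 1.57 and 2.07 with shRNA2, against 5.30 and 7.25 in the control. In each of these ratios the 3 groups did not overlap, but MYC is the numerator of each and its own levels did not overlap either. The ratios therefore add no separate evidence. An exact permutation test of 2 libraries against 2 cannot give a two-sided p below 0.3333. RNA ratios say nothing of protein or of dimers.

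The make-up of the MXD family is given as a description, with no test, and of its genes MXI1 alone was called with shRNA2. MXI1 was 31.7% and 40.8% of the summed RPKM of MXD1, MXD3, MXD4 and MXI1 with shRNA2, 56.0% and 55.7% with shRNA1, and 52.5% and 58.8% in the control. MXD3 was 47.3% and 33.0% of that sum with shRNA2, 20.4% and 19.6% with shRNA1, and 30.3% and 22.5% in the control. The sum itself overlapped between groups, at 30.1 and 25.5 RPKM with shRNA2, 29.9 and 29.4 RPKM with shRNA1, and 32.9 and 26.7 RPKM in the control.

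**Figure D3:**
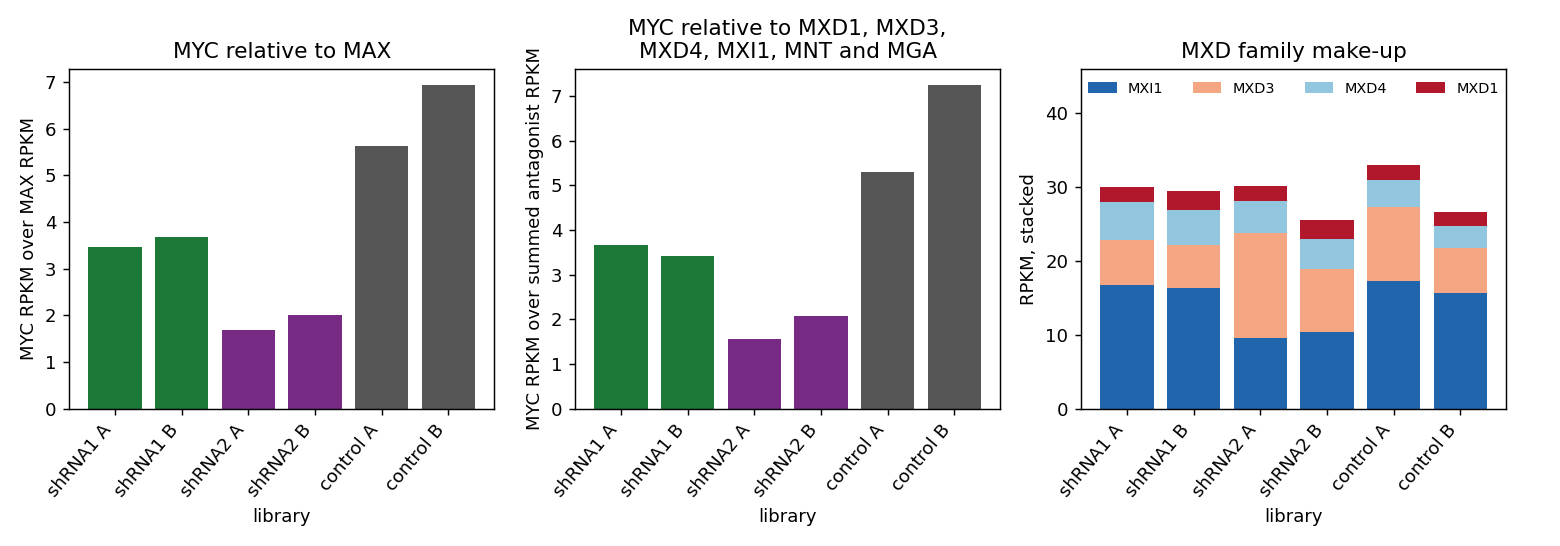
Ratio of MYC to MAX, ratio of MYC to its 6 antagonists, and stacked RPKM of the MXD family, per library, for TAZ shRNA1, TAZ shRNA2 and control. Both ratios are lowest in the shRNA2 libraries, at 1.57 to 2.07, and highest in the control libraries, at 5.30 to 7.25.

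The hairpins were compared directly, in 1 fit of all 6 libraries, to ask whether their responses differed. TAZ itself differed between shRNA2 and shRNA1 by a log2 value of -1.001 (limma adjusted p = 0.00801). Over 18 alternatives the value lay between -1.21 and -0.80, and not all of them were called. The shRNA2 level of TAZ rests on 55 and 82 reads. The hairpins thus differ in sequence and, within these limits, in the TAZ level reached. MYC was lower with shRNA2, at a log2 difference from shRNA1 of -1.07 (SE 0.15, 95% interval -1.41 to -0.73, limma adjusted p = 0.00428), a level 2.10-fold lower. MXI1 was lower with shRNA2 too, at a log2 difference from shRNA1 of -0.70 (SE 0.12, 95% interval -0.98 to -0.43, limma adjusted p = 0.00985). These 2 of 10 members fell, where limma called 10.9% of all genes, 6.1% as lower and 4.78% as higher. Libraries did not overlap for 7 members, against 58.6% of all genes. The MYC call was lost without shRNA1 A (0.0619) and without shRNA1 B (0.0521), and the MXI1 call without either of them or without shRNA2 A (0.0628 to 0.103).

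MXD3 differed by 0.83 between shRNA2 and shRNA1 (SE 0.27, 95% interval 0.22 to 1.45, limma adjusted p = 0.088), with both shRNA2 libraries above both shRNA1 libraries. The value was 0.47 without shRNA2 A and 1.19 without shRNA2 B, and it was called in a fit of those 4 libraries alone (0.0332). For MAX the difference was -0.12 (95% interval -0.40 to 0.15) and for MLX 0.25 (95% interval -0.03 to 0.54). Every shRNA2 library of MGA and MXD4 lay below both shRNA1 libraries, with log2 differences of -0.24 (95% interval -0.58 to 0.10) and -0.21 (95% interval -0.54 to 0.11), and neither gene was called.

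**Figure D4:**
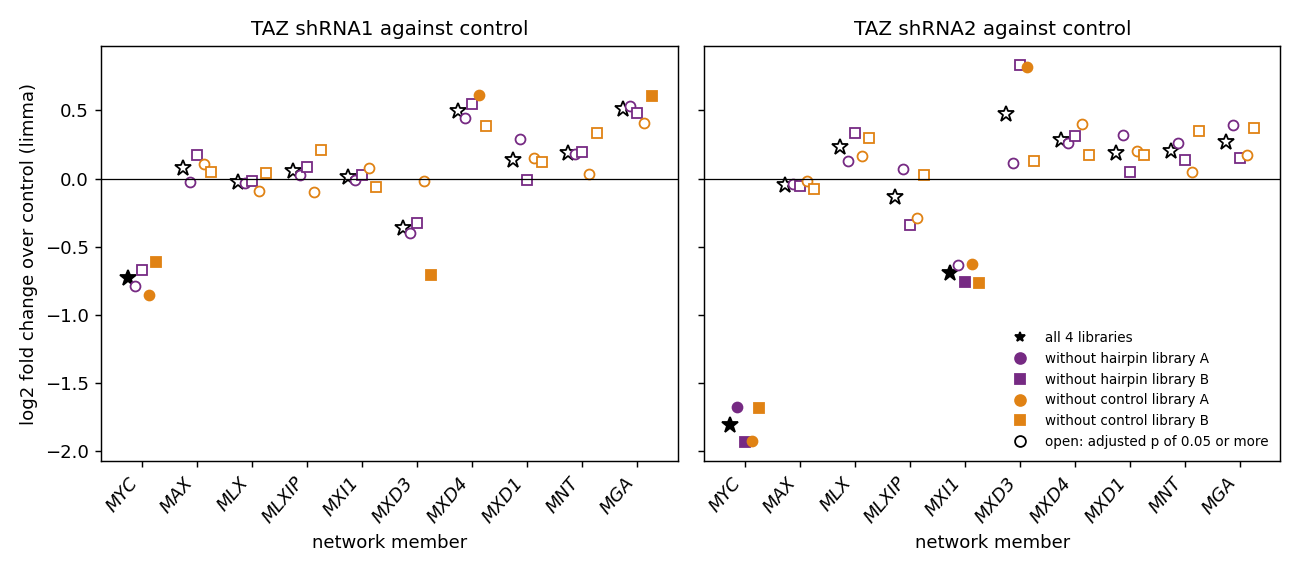
log2 fold change of each network gene against the control with all libraries and with each library left out in turn, for TAZ shRNA1 and TAZ shRNA2. MYC stays between -0.85 and -0.61 with shRNA1 and between -1.93 and -1.68 with shRNA2, while MXD3 ranges from -0.71 to -0.02 with shRNA1 and from 0.11 to 0.83 with shRNA2.

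Of 32 tested genes that MYC is known to activate, 14 fell with shRNA2, none rose and 18 were not called, where limma called 7.61% of all genes lower and 8.12% higher. Their median log2 fold change was -0.64, against -0.00 over all genes. With shRNA1 5 of 33 fell, 1 rose (TFRC) and 27 were not called, where 8.58% of all genes were called lower and 9.99% higher, and the median was -0.27. That MYC-related genes were lower in these libraries was known when the list was made, so it is not independent evidence of direction. With shRNA2 the number called lay between 6 (without shRNA2 B) and 12 when 1 library was left out. With shRNA1 it was 2 without shRNA1 A, 0 without shRNA1 B, 17 without control A and 16 without control B. Some other settings called more, 24 with a gene length trend removed and 22 with all 6 libraries in 1 fit for shRNA2, and 11 with the length trend removed and 12 with limma-voom for shRNA1. Not every setting went that way. Under quantile normalization the medians were -0.48 with shRNA2 and -0.18 with shRNA1. The shRNA2 calls of EIF5A and HSPD1, picked after their values were seen, were lost with no filter on low values.

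FBL, the nucleolar methyltransferase that modifies ribosomal RNA, averaged 268 ± 19.8 RPKM with shRNA1 and 214 ± 4.59 RPKM with shRNA2, against 409 ± 34.3 RPKM in the control. Its log2 fold changes were -0.61 (limma adjusted p = 0.0277) and -0.93 (0.0163). PPAN, a ribosome assembly factor whose gene overlaps that of P2RY11 in a joint transcript, fell by 0.83 with shRNA1 (limma adjusted p = 0.00977) and by 0.81 with shRNA2 (0.0153). NAMPT, which makes the NAD precursor, fell by 0.51 (limma adjusted p = 0.0274) and by 0.81 (0.0132). NME1, a nucleoside diphosphate kinase, fell by 0.58 (limma adjusted p = 0.0345) and by 0.92 (0.0326). The shRNA1 calls of FBL, NAMPT and NME1 were lost without either shRNA1 library and that of PPAN without shRNA1 B, and NME1 was not called with all 6 libraries in 1 fit. Of the shRNA2 calls, those of FBL and NME1 were lost without shRNA2 B or control A, that of PPAN without shRNA2 B, and that of NAMPT held without each of the 4.

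Other list members differed between the hairpins, and those named here were picked after their values were seen. CDC25A, a phosphatase that starts the cell cycle, had 19.7 and 16.8 RPKM with shRNA1 and 6.73 and 6.67 RPKM with shRNA2, against 23.4 and 23.2 RPKM in the control. It fell with shRNA2 by 1.72 (limma adjusted p = 0.00245), and its shRNA1 value was -0.35 (limma adjusted p = 0.0929). Its log2 difference between shRNA2 and shRNA1 was -1.38 (limma adjusted p = 0.00102), a call that held with each library left out. SLC16A1, a lactate transporter, fell with shRNA2 by 1.10 and SRM, spermidine synthase, by 0.995 (limma adjusted p = 0.00626 and 0.00802). Their log2 differences between shRNA2 and shRNA1 were -0.93 and -0.65 (limma adjusted p = 0.00494 and 0.0240). That call of SLC16A1 was lost without either shRNA1 library, and that of SRM whichever hairpin library was left out. Between shRNA2 and shRNA1, the median of the list was -0.35, against -0.0086 over all genes tested. In that comparison 6 of 32 genes of the list fell and none rose, where limma called 6.1% of all genes lower and 4.78% higher. That count was 1 without either shRNA1 library, 2 without either shRNA2 library and 9 without either control library, and it was 11 under quantile normalization and 18 with the length trend removed. NPM1, PTMA, HSPD1 and EIF5A have near-identical copies in the genome, so their values are uncertain.

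**Figure D5:**
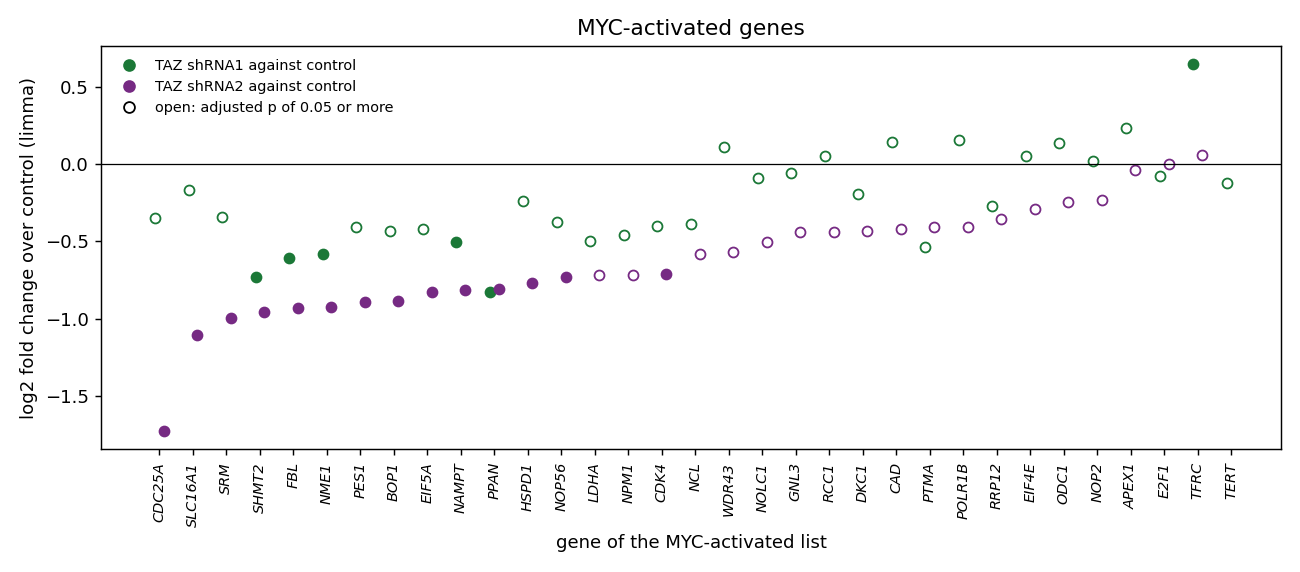
log2 fold change of each tested gene of the MYC-activated list, for TAZ shRNA1 against control and TAZ shRNA2 against control, with filled symbols for an adjusted p under 0.05. With shRNA2 14 genes fell, CDC25A the most at -1.72, and with shRNA1 5 fell and TFRC rose.

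Genes that MYC is known to repress did not move one way. With shRNA1 1 of 13 rose (NDRG2, a stress-responsive gene, by 1.26) and 2 fell (KLF6 by 1.28 and KLF2 by 0.99, both zinc finger factors). With shRNA2 3 of 13 rose (the integrin chain ITGB2 by 1.302, the matrix protein THBS1 by 0.95 and the cyclin kinase inhibitor CDKN1A by 0.61) and 2 fell (the cyclin CCND1 by 1.39 and KLF6 by 1.04). The medians were -0.12 and 0.05. Over all genes tested, limma called 18.6% with shRNA1 and 15.7% with shRNA2. NDRG2, KLF2, ITGB2 and THBS1 were picked after their values were seen. CDKN1A had 116 and 103 RPKM with shRNA1 and 126 and 116 RPKM with shRNA2, against 87.4 and 70.9 RPKM in the control, and its shRNA2 call (limma adjusted p = 0.0460) was lost without shRNA2 A, shRNA2 B or control B, with no filter on low values, with no variance trend and under median centring. KLF2 was lost without shRNA1 B. THBS1 was lost without shRNA2 A, under quantile normalization and with the length trend removed. The number called with shRNA1 was 6 without control A, 8 without control B and 2 without shRNA1 B, and with shRNA2 it lay between 4 and 6 with a library left out and was 3 with a filter at 5 RPKM.

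Partners of MYC on chromatin and regulators of its protein were counted beside the 18.6% of all genes called with shRNA1 and the 15.7% called with shRNA2. Of 16 co-activators, 2 fell with shRNA1, among them DOT1L, a histone methyltransferase picked after its value was seen, by 0.66 (limma adjusted p = 0.0279). Both calls were lost without either shRNA1 library, and 3 and 5 genes of the list were called without control A and control B. With shRNA2 limma called 0 of 16, as did limma-voom, with 4 at an unadjusted p under 0.05, and 3 were called with the length trend removed or with all 6 libraries in 1 fit. Of 23 genes of MYC protein turnover and its kinases, 1 rose and 1 fell with each hairpin. Without control A and control B, 5 and 7 were called with shRNA1 and 3 and 4 with shRNA2, while 1 was called without either shRNA1 library and without shRNA2 B. With the length trend removed 4 and 6 were called, and with all 6 libraries in 1 fit 4 with shRNA2. GSK3B, a kinase that marks MYC for degradation, had 9.55 and 10.1 RPKM with shRNA1 and 9.90 and 11.2 RPKM with shRNA2, against 5.76 and 6.78 RPKM in the control. Its log2 fold changes were 0.61 (limma adjusted p = 0.0265) and 0.71 (0.0257), calls lost without either shRNA1 library and without shRNA2 B. PIM3, a kinase that stabilises MYC, fell by 1.36 with shRNA1 and by 1.07 with shRNA2 (limma adjusted p = 0.00772 and 0.00683), and these calls held with each library left out.

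The next counts stand beside the 18.6% of all genes that limma called with shRNA1 and the 15.7% with shRNA2. The MXD proteins act through SIN3, NCOR and HDAC corepressors. Of 19 such genes, 1 rose and 1 fell with shRNA1, and 1 rose and 2 fell with shRNA2. With shRNA1 the number called was 1 without shRNA1 A, 0 without shRNA1 B, 3 without control A, and 8 when control B was left out. With shRNA2 it was 1 without shRNA2 A and 0 without shRNA2 B. Removing the length trend gave 4 with shRNA1, and no filter or no variance trend gave 1. RBBP4, a histone-binding subunit, had 45.1 and 50.9 RPKM with shRNA1 and 44.5 and 41.7 RPKM with shRNA2, against 28.5 and 31.5 RPKM in the control. It rose by 0.67 (limma adjusted p = 0.0144) and by 0.52 (0.0462), but the shRNA1 call was lost without shRNA1 B and the shRNA2 call without any 1 of the 4 libraries, with no variance trend and with the length trend removed. ING2, a SIN3 subunit, fell with shRNA2 by 0.89 (limma adjusted p = 0.0167), a call lost without shRNA2 B. None of the 14 genes of the MGA Polycomb complex was called with either hairpin by limma or limma-voom, and 1 and 2 had an unadjusted p under 0.05. With shRNA1, 2 were called without either control library, and 1 was called with each hairpin once the length trend was removed.

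Targets of MLX and MondoA were measured through 8 genes, beside the 18.6% of all genes called with shRNA1 and the 15.7% with shRNA2. With shRNA1 limma and limma-voom called 0, with 4 at an unadjusted p under 0.05, and with shRNA2 1 fell. Without control A and control B, 1 and 5 were called with shRNA1, and without control B, or with all 6 libraries in 1 fit, 2 with shRNA2. HK2, a hexokinase, had 19.5 and 17.3 RPKM with shRNA1 and 9.38 and 9.53 RPKM with shRNA2, against 22.8 and 19.3 RPKM in the control. Its shRNA2 change was -1.11 (limma adjusted p = 0.00568), held with each library left out. TXNIP, the glucose-responsive arrestin that MondoA is best known to activate, had 37.6 and 48.8 RPKM with shRNA1 and 68.4 and 83.2 RPKM with shRNA2, against 79.1 and 52.2 RPKM in the control. It differed only between shRNA2 and shRNA1 among the 3 comparisons, by 0.81 (limma adjusted p = 0.0473), and that call was lost without any of those 4 libraries, with no filter, with no variance trend and under median centring.

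Among 16 other helix-loop-helix and E-box factors, TFEC, a relative of the lysosomal factor TFEB, rose most. It had 8.35 and 9.04 RPKM with shRNA1 and 4.90 and 4.35 RPKM with shRNA2, against 1.48 and 1.27 RPKM in the control. Its log2 fold changes were 2.30 (limma adjusted p = 0.00102) and 1.45 (0.00424), held with each library left out. ARNTL (BMAL1), the clock factor, rose with shRNA2 by 1.10 (limma adjusted p = 0.00957) and had a value of 0.31 with shRNA1 (0.218). Over all genes tested, limma called 18.6% with shRNA1 and 15.7% with shRNA2. Of these 16 factors, 1 rose and 1 fell with shRNA1, and 2 rose and 1 fell with shRNA2. Without control A, 4 were called with shRNA1 and 5 with shRNA2, and 2 were called with shRNA2 without shRNA2 A and 5 with all 6 libraries in 1 fit. Of the neighbours of the MYC locus and factors known to regulate MYC transcription, 2 of 20 rose and 2 fell with shRNA1, and 3 of 21 rose and 2 fell with shRNA2. The shRNA1 calls numbered 1 without shRNA1 A, 2 without shRNA1 B and 7 without control B, and the shRNA2 calls 3 without any of shRNA2 A, shRNA2 B or control B, with no filter or with no variance trend. NFATC1, a calcium-responsive activator, fell by 1.35 with shRNA1 and by 0.80 with shRNA2 (limma adjusted p = 0.00592 and 0.0366), the second lost without shRNA2 A or control B or with no filter. CTNNB1 (β-catenin) rose by 0.48 and 0.53 (limma adjusted p = 0.0303 and 0.0435), calls lost without either shRNA1 library and without any 1 of the 4 libraries of the shRNA2 comparison, the shRNA2 call also with no variance trend.

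The genes whose levels over the 6 libraries were most like those of MYC were found by the root mean square difference of centred log2(RPKM + 0.5) values, over 10659 genes. They were TMEM241 (0.107), LOC101927746 (0.141), PDCD2L (0.159), TNFAIP3 (0.163) and BCAS4 (0.171). TMEM241 had 3.11 and 2.90 RPKM with shRNA1 and 1.15 and 1.297 RPKM with shRNA2, against 4.13 and 5.23 RPKM in the control. TNFAIP3, an inhibitor of NF-κB signalling, had 5.41 and 6.48 RPKM with shRNA1 and 2.56 and 3.35 RPKM with shRNA2, against 11.7 and 10.9 RPKM in the control. For MXD4, the member besides MYC whose smaller difference of both hairpins, in one direction, was largest, the nearest were CASP9 (0.0411), APBB1 (0.0457), NUP214 (0.0470), RUFY1 (0.0482) and TIMM10B (0.0482). All 6 points share their libraries with the genes compared, so the likeness is a description.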

How the data were processed

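Per the submitters' processing notes, the tools were DESeq 1.18.0, edgeR 3.8.6, HTSeq 0.6.1p2, TopHat2 2.0.11 and Trim Galore 0.4.0, on build hg19. Their roles, the gene filter and the strand setting are not stated, so reads of a gene and an antisense partner cannot be told apart. Per the file headers, the authors deposited RPKM per library, with 1 table per hairpin and the same control columns in both. The deposited tables further give log2 fold changes, mean log2 CPM, a test score and p-values, raw and adjusted, all from the authors. Table titles and letters placed every column, with 0 unmatched. Of 13004 rows, 21 date-like symbols were renamed by gene ID and 2 repeats dropped. Low RPKM values stepped in whole reads for 12647 genes (97.3%, within 0.05 reads), which gave the depths and reads printed, and the other 355 were scaled by average log2 CPM.

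limma 3.58.1 (R 4.3.3) was fitted to log2(RPKM + 0.5), with a prior variance trend, on genes averaging 1 RPKM or more. Each hairpin was tested against the control in its own 4 libraries and shRNA2 against shRNA1 in all 6, two-sided, with Benjamini-Hochberg adjustment over all genes tested and a threshold of 0.05. Fold changes on this scale understate changes of low genes. The fits were also run on simulated reads with the same spread setting for every gene, which the real libraries need not share. No result here rests on that run. Alternatives changed the pseudocount, filter, variance model, normalization and libraries.

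The members and lists were chosen with earlier results of these data known. Named genes are the members, TAZ, up to 4 genes of each list whose larger p over both control comparisons was smallest, and the 5 most like MYC and MXD4; others are said to be picked after their values were seen. MYCN and the promoter of MYC were not analysed here. One gene that the rule names is not reported here. Promoters and their coordinates come from RefSeq on GRCh38.p14 and were not combined with hg19 positions.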

Additional observations from a re-analysis of the deposited data

Results flagged for a closer look

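The response of MYC differed between the hairpins. Its log2 fold change against the control was -1.81 with shRNA2 and -0.73 with shRNA1, a tested difference of -1.07 (limma adjusted p = 0.00428), with both shRNA2 libraries below both shRNA1 libraries. MYC was lower with both hairpins, but its shRNA1 call and the call of the difference were each lost without either shRNA1 library.

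MXI1 also differed, with a log2 fold change of -0.70 with shRNA2 and 0.01 with shRNA1, a tested difference of -0.70 (limma adjusted p = 0.00985) in the same direction in every pair of libraries. The log2 difference of TAZ between shRNA2 and shRNA1 was -1.001, and the part of the TAZ level and of the hairpin sequence in these differences cannot be told apart.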

How the results depend on the processing

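Of 488 alternative values of the members, 463 kept their side of the threshold, 8 lost the call and 17 gained one. No called value changed sign; 21 of the 463, all uncalled and between -0.15 and 0.07 on the log2 scale, took the other sign (MAX, MXI1, MXD1, MNT, MLX and MLXIP). With shRNA1 against control the number of members called, 1 as reported, was 2 without the variance trend or with robust empirical Bayes, 3 with limma-voom on recovered reads or with all 6 libraries in 1 fit, and 0 to 3 with 1 library left out. With shRNA2, 2 as reported, it was 1 to 3 with 1 library left out, and for shRNA2 against shRNA1, 2 as reported, 0 to 3. Letters A and B were used as a replicate block in 1 fit. The block called 3 members in each comparison (MYC, MXD4 and MGA with shRNA1; MYC, MXI1 and MXD3 in the others, MXD3 with shRNA2 at 0.47, adjusted p 0.0103), and 3780, 4170 and 2396 genes of the whole table, against 1971, 1676 and 1160 without it. Deviations of libraries with the same letter correlated at 0.260 between shRNA1 and control, 0.423 between shRNA2 and control and 0.367 between the hairpins, but nothing in the labels ties the letters to a shared culture or day. With 1 library left out, the genes called lay between 461 and 4397 with shRNA1, 823 and 2010 with shRNA2, and 155 and 1622 between the hairpins. All 6 libraries in 1 fit gave 2584 with shRNA2, and removing a gene length trend 1811 between the hairpins. Of the lists' counts, 133 moved by more than 1.5 times and 367 did not. A filter at 5 RPKM left MGA, MNT, MXD1 and MXD4 untested. MXD1 and MNT rest on 174 to 296 reads per library, which limits their precision.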

Other observations

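Several E-box factors and regulators of MYC transcription not described above also passed the test; they were picked after their values were seen. USF2, a ubiquitous E-box activator, fell with shRNA1 by 1.06 on the log2 scale (limma adjusted p = 0.0107), and its log2 difference between shRNA2 and shRNA1 was 1.06 (0.00831). TCF3, an E-protein of lymphoid development, fell with shRNA2 by 0.63 (limma adjusted p = 0.0234). STAT5A, a cytokine-activated factor, rose with shRNA2 by 1.295 (limma adjusted p = 0.00783), and STAT3 by 0.58 (0.0469). FAM49B, a neighbour of the MYC locus, fell with shRNA2 by 0.85 (limma adjusted p = 0.0119), and its log2 difference between shRNA2 and shRNA1 was -1.01 (0.0026). With shRNA1 FUBP1, which binds an element upstream of MYC, rose by 0.67 (limma adjusted p = 0.0184) and TCF7L2, the DNA-binding partner of β-catenin, fell by 0.94 (0.0322).

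The shRNA1 call of USF2 and the shRNA2 calls of STAT5A and FAM49B held with each library left out. That of TCF3 was lost without either shRNA2 library, that of STAT3 without shRNA2 B or control A, with no filter, with no variance trend and under quantile normalization or median centring, that of FUBP1 without either shRNA1 library and that of TCF7L2 without shRNA1 A. Of the differences between the hairpins, that of FAM49B held with each library left out and that of USF2 was lost without shRNA1 B or shRNA2 B.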
